A study of Mus musculus with 6 samples.

Results

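The collagen genes of hyaline cartilage were examined in the articular cartilage of mice, with or without a gene knockout (KO). The 8 genes, Col2a1, Col9a1, Col9a2, Col9a3, Col10a1, Col11a1, Col11a2 and Col27a1, were chosen by name as the genes of collagen types II, IX, X, XI and XXVII, and each had 1 row among the 34709 genes of the deposited table. RNA sequencing was done on 6 libraries, 3 from KO cartilage and 3 from wildtype cartilage. By the study's text the mice were male littermates, 18 months old, and the KO line was on the C57BL/6J background. The labels give no treatment, and no promoter or Cre that would limit the knockout to a cell type is named. Which parts of the joint were dissected for RNA was not given in the sources used here, and the labels do not tie each library to a separate animal. The study's text calls the samples of its experiments independent in general. The p-values measure the spread between these samples.

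The protein of Col2a1 assembles with itself into type II collagen, the main fibril of hyaline cartilage. Type XI collagen, made of the products of Col11a1, Col11a2 and Col2a1, lies within that fibril and limits its width, and type IX collagen, made of the products of Col9a1, Col9a2 and Col9a3, sits on its surface and links it to other matrix proteins. Col10a1 encodes type X collagen, a short network-forming collagen of hypertrophic chondrocytes and calcified cartilage, and Col27a1 encodes a thin fibrillar collagen laid down around chondrocytes as they approach hypertrophy. SOX9, with SOX5 and SOX6, drives the genes of types II, IX and XI, whereas RUNX2 and MEF2C drive Col10a1.

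The sequences just before the start of 3 of these genes are shown because Col10a1 had the highest mean level of the 8 genes, while Col11a1 and Col11a2 encode chains of the same molecule and had similar profiles over the libraries. The 250 bases before each start, from RefSeq on the + strand of GRCm38.p6, are printed 5′ to 3′ with the matched letters of the searched motifs in capitals. The windows are chr10:34389731-34389980 for Col10a1, chr3:114030290-114030539 for Col11a1 and chr17:34038888-34039137 for Col11a2.
Col10a1: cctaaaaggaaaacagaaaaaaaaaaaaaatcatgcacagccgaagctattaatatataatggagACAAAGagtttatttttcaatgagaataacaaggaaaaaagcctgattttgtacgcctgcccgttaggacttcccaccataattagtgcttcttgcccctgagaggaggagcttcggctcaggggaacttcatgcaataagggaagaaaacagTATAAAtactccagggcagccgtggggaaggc
Col11a1: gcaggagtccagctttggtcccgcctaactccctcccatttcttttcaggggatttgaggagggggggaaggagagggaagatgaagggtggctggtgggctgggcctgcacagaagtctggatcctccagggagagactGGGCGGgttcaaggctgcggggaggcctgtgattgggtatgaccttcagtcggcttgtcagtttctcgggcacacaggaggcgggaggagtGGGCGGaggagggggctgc
Col11a2: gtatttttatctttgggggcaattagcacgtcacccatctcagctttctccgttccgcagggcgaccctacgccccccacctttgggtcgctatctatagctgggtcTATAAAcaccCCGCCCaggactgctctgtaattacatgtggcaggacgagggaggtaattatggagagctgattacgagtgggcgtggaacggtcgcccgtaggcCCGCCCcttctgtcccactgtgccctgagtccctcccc
The motifs were searched as letters on both strands: the TATA box as TATAAA, the GC box as GGGCGG (printed as CCGCCC where it lies on the other strand), and the SOX binding core in its forms AACAAT and, with other letters, ACAAAG. The Col10a1 window held TATAAA with its first base at position -32, counted back from the RefSeq start of the gene, and ACAAAG at -185. The Col11a1 window held GGGCGG at -110 and -19 and no TATAAA. The Col11a2 window held TATAAA at -143 and GGGCGG on the other strand at -133 and -38. The measured Col11a2 gene starts further downstream, at chr17:34039437, so these positions count from another start. The windows of Col10a1 and Col11a1 end just before the starts of the measured genes. No matched letters overlapped. Of 32851 windows of this length over all genes, 12.4% held the TATA box, 32.7% the GC box, and 9.42% and 16.5% the first and the second SOX core. The GC content was 41.6% for Col10a1, 62.4% for Col11a1 and 57.6% for Col11a2, against a median of 52.4% over all windows. Windows were found for 6 of the 8 genes, not for Col2a1 or Col9a3.

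Total counts ranged from 52268311 to 63331135 per library. KO replicates 2 and 3 were nearly the same library: the squared difference of their counts was 5.91 times that of Poisson sampling, against 42.0 to 234 times for the other 14 pairs. They were therefore averaged and counted as 1 sample, which left 2 KO and 3 wildtype samples. The 6 libraries as labelled were fitted beside this. That fit counts KO replicates 2 and 3 as separate samples, so its p-values can be too small and its calls too many. Among 15 chondrocyte markers, Acan, which encodes the proteoglycan aggrecan, was at 13.2 to 22.8 FPKM (fragments counted per kilobase of transcript, relative to the depth of each library) and Comp, a matrix protein that binds collagen, at 41.0 to 109 FPKM. Matn3, a cartilage matrilin, was listed at 0 in 3 libraries and reached 0.202 FPKM, and Matn1 and Epyc were also listed at 0 in some. Markers of blood cells were abundant as well, with 7 erythroid markers summing to between 24733 and 108119 FPKM. In such bulk samples, fewer cells of a type and less RNA per cell cannot be told apart.

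Where values of the 3 libraries of a group are given in a row below, they stand in the order of the replicate numbers 1, 2 and 3. The levels of the 8 genes spanned from under 0.5 to over 60 FPKM. Col10a1 was the highest in 5 of the 6 libraries and took between 26.7% and 49.7% of the summed FPKM of the 8 genes. In wildtype replicate 1, Col11a2 stood above it. Col2a1 came after these 2 genes in each library, at 12.3% to 15.9% of the sum. Col11a1 and Col27a1 came after it and changed places between libraries, Col9a2 and Col9a3 followed, and Col9a1 was the lowest in each library. The summed level was 129.9, 94.8 and 96.8 FPKM in the KO libraries and 133.5, 153.6 and 108.8 FPKM in the wildtype libraries. Over the libraries, the ranges of neighbours in this order overlapped, with 2 exceptions: the range of Col2a1 (12.4 to 21.3 FPKM) lay below those of Col10a1 and Col11a2, and the range of Col9a1 lay below all the others.

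**Figure D1:**
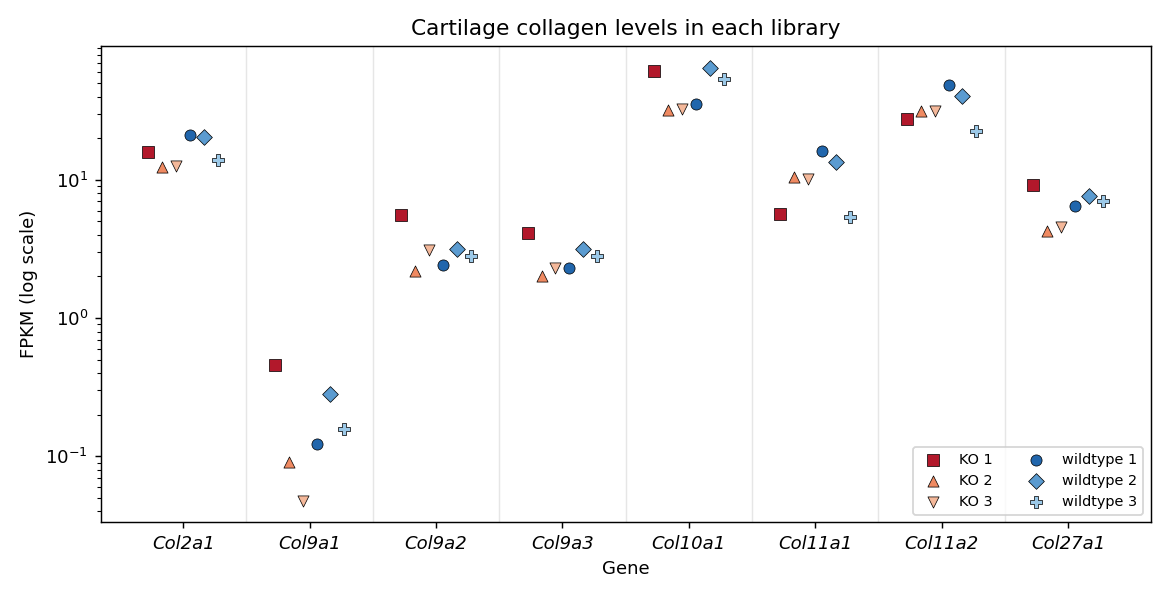
FPKM of the 8 collagen genes (log axis), with 1 point for each of the 6 libraries. Col10a1 and Col11a2 lie highest and Col9a1 lowest, and for each gene the KO points (red) overlap the wildtype points (blue).

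For none of the 7 collagen genes tested did a difference between KO and wildtype cartilage pass the test. A gene was tested with a mean of at least 0.5 FPKM, by edgeR's quasi-likelihood test over 15373 genes, and called at a Benjamini-Hochberg adjusted p under 0.05. By edgeR, 0 of the 7 were called, 0 had an unadjusted p under 0.05 and 0 were called with the 6 libraries as labelled, by DESeq2 or by limma. The background was 0% of all tested genes called (lowest adjusted p = 0.105), 13.7% at an unadjusted p under 0.05 and 3.71% with the 6 libraries as labelled, where 570 genes were called. DESeq2 called 880 genes and limma 0. The FPKM of the 2 groups overlapped for each of the 7 genes, whereas 28.6% of all tested genes had no overlap between the 5 samples. The log2 difference, KO minus wildtype, was negative for 5 of the 7, against 52.5% of all tested genes, and its median was -0.11, against -0.02 over all tested genes. These directions rested on single libraries: without KO replicate 1, 7 of the 7 were negative (median -0.40), without wildtype replicate 2, 3 of the 7 were (median 0.08), and without both KO replicates 2 and 3, 3 of the 7 were (median 0.32). Without KO replicate 1, or without both of the others, the KO group holds 1 independent sample, so the p-values given for these settings assume that it varies like the wildtype samples.

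Col2a1 (ENSMUSG00000022483, chr15:97975602-98004695 on the minus strand, GRCm38) encodes the chain of type II collagen. Its level was 16.0, 12.4 and 12.6 FPKM in the KO libraries and 21.3, 20.3 and 13.9 FPKM in the wildtype libraries. Wildtype replicates 1 and 2 stood above the other libraries, and wildtype replicate 3 lay below KO replicate 1. The means were 14.2 ± 2.48 FPKM over the KO samples (SD, n = 2) and 18.5 ± 4.03 FPKM over wildtype samples (SD, n = 3). The log2 difference was -0.35 (SE 0.231, 95% interval -0.89 to 0.20, edgeR adjusted p = 0.596). Of the 7 genes it had the narrowest interval.

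Among the 7 tested genes, those of type XI collagen had the widest spread over the wildtype libraries on a log scale. In FPKM the wildtype SD was largest for Col10a1 (14.8), against 13.4 for Col11a2 and 5.68 for Col11a1. Col11a1 (ENSMUSG00000027966, chr3:114030540-114220718, plus strand) was at 5.67, 10.4 and 10.2 FPKM in the KO libraries and at 16.3, 13.5 and 5.36 FPKM in the wildtype libraries. The lowest and the highest values were both wildtype. The log2 difference was -0.55 (SE 0.449, 95% interval -1.61 to 0.51, edgeR adjusted p = 0.692), with means of 7.99 ± 3.28 FPKM over the KO samples (SD, n = 2) and 11.7 ± 5.68 FPKM over wildtype samples (SD, n = 3). Col11a2 (ENSMUSG00000024330, chr17:34039437-34066685, plus strand), which encodes its partner chain, was at 27.4, 31.3 and 31.5 FPKM in the KO libraries and at 49.0, 40.7 and 22.7 FPKM in the wildtype libraries. As for Col11a1, wildtype replicate 3 was the lowest library and wildtype replicates 1 and 2 the highest. The log2 difference of Col11a2 was -0.33 (SE 0.299, 95% interval -1.04 to 0.37, edgeR adjusted p = 0.727). Without wildtype replicate 3, the log2 differences were -0.88 for Col11a1 (edgeR adjusted p = 0.487) and -0.58 for Col11a2 (edgeR adjusted p = 0.489), and neither gene was called.

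The type IX genes were the least abundant, and each was highest in KO replicate 1. Col9a2 (ENSMUSG00000028626, chr4:121039385-121055322, plus strand) was at 5.58, 2.19 and 3.09 FPKM in the KO libraries and at 2.42, 3.16 and 2.83 FPKM in the wildtype libraries. KO replicate 1 stood alone, and the wildtype libraries lay between KO replicate 2 and 1. The means were 4.11 ± 2.08 FPKM over the KO samples (SD, n = 2) and 2.80 ± 0.373 FPKM over wildtype samples (SD, n = 3), with a log2 difference of 0.59 (SE 0.346, 95% interval -0.23 to 1.40, edgeR adjusted p = 0.541). Col9a3 (ENSMUSG00000027570, chr2:180597790-180622189, plus strand) was at 4.15, 2.01 and 2.29 FPKM in the KO libraries and at 2.29, 3.19 and 2.81 FPKM in the wildtype libraries. Its log2 difference was 0.22 (SE 0.330, 95% interval -0.557 to 0.998, edgeR adjusted p = 0.861). Both differences turned negative without KO replicate 1, to -0.13 for Col9a2 and -0.40 for Col9a3.

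Col9a1 (ENSMUSG00000026147, chr1:24177610-24252684, plus strand), the remaining chain of type IX collagen, had a mean of 0.193 FPKM and so was not tested with the others. It was at 0.460, 0.0910 and 0.0478 FPKM in the KO libraries and at 0.122, 0.282 and 0.157 FPKM in the wildtype libraries, from 18 to 138 counts per library. The KO libraries held both the highest and the lowest values. In a fit of 33321 genes without the limit on FPKM, its log2 difference was 0.56 (SE 0.676, edgeR adjusted p = 0.825).

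Col10a1 (ENSMUSG00000039462, chr10:34389981-34397085, plus strand), the gene of type X collagen, was at 61.4, 32.2 and 32.5 FPKM in the KO libraries and at 35.7, 64.9 and 54.1 FPKM in the wildtype libraries. Each group held libraries near the top and near the bottom of the range. The means were 46.9 ± 20.6 FPKM over the KO samples (SD, n = 2) and 51.6 ± 14.8 FPKM over wildtype samples (SD, n = 3), with a log2 difference of -0.11 (SE 0.359, 95% interval -0.96 to 0.74, edgeR adjusted p = 0.949). The difference was -0.72 without KO replicate 1 (edgeR adjusted p = 0.314) and 0.12 without wildtype replicate 2. Col10a1 lies inside Nt5dc1 on the opposite strand in the GENCODE annotation, and whether counting used the strand of the reads was not stated. Nt5dc1 was at 6.22 to 8.13 FPKM, below the lowest value of Col10a1.

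Col27a1 (ENSMUSG00000045672, chr4:63214004-63333749, plus strand), the gene of type XXVII collagen, was at 9.25, 4.27 and 4.56 FPKM in the KO libraries and at 6.48, 7.63 and 7.01 FPKM in the wildtype libraries. The wildtype libraries lay close together, with KO replicate 1 above them and KO replicates 2 and 3 below. The log2 difference was -0.01 (SE 0.312, 95% interval -0.74 to 0.73, edgeR adjusted p = 0.997), from means of 6.83 ± 3.42 FPKM over the KO samples (SD, n = 2) and 7.04 ± 0.577 FPKM over wildtype samples (SD, n = 3). Without KO replicate 1 it was -0.71 (unadjusted p = 0.00565 and adjusted p = 0.0873 by edgeR), and without both KO replicates 2 and 3 it was 0.47 (edgeR adjusted p = 0.470).

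**Figure D2:**
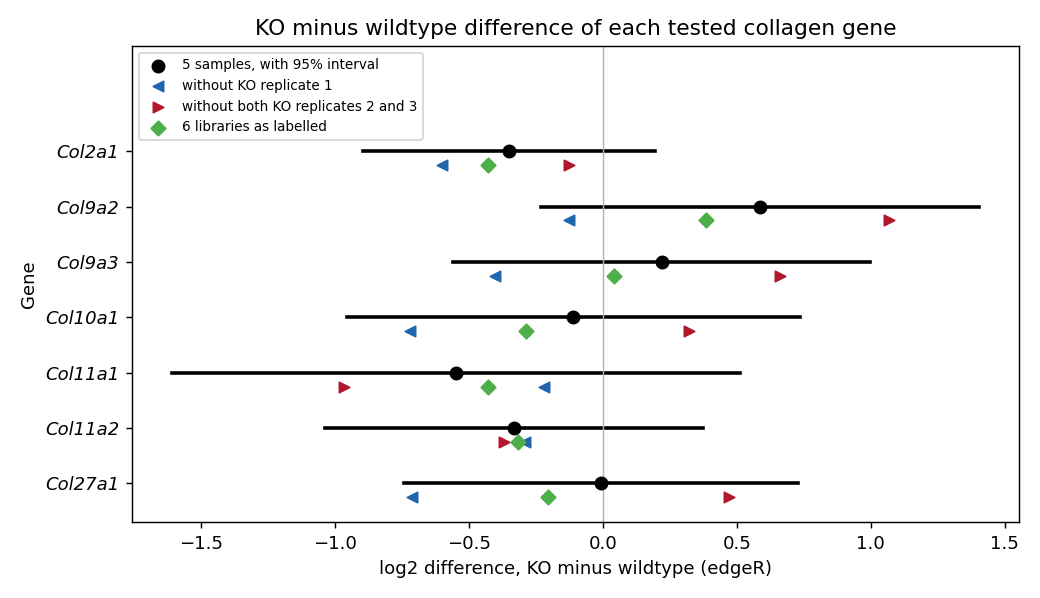
Log2 difference, KO minus wildtype, of the 7 tested collagen genes, with black points and bars for the 5 samples and their 95% intervals. All intervals contain 0, and the differences without KO replicate 1 (blue) and without both KO replicates 2 and 3 (red) lie on opposite sides of 0 for Col9a2, Col9a3, Col10a1 and Col27a1.

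Profiles across the libraries differed between the genes. They are described here on log2 CPM (counts scaled to a common library total, with TMM factors) centred on the mean of each gene over the 6 libraries. Col9a2, Col9a3, Col10a1 and Col27a1 were high in KO replicate 1, with centred values of 0.94, 0.69, 0.53 and 0.63, and low in KO replicate 2, with -0.52, -0.46, -0.51 and -0.60. In KO replicate 3 the values were -0.02, -0.27, -0.50 and -0.50, so Col9a2 lay near its mean there. Of these genes, Col10a1 was highest in wildtype replicate 2, with 0.59. Col11a1 and Col11a2 were high in wildtype replicate 1, with 0.74 and 0.54, and lowest in wildtype replicate 3, with -0.83 and -0.54. Col2a1 was high in wildtype replicates 1 and 2, with 0.40 and 0.42, and lowest in KO replicate 2, with -0.38. The root mean square difference between 2 profiles was smallest for Col9a3 and Col27a1 (0.165) and for Col9a2 and Col9a3 (0.184). For Col2a1 the nearest of the other collagen genes was Col11a2 (0.249), and for Col11a1 it was also Col11a2 (0.279). The largest difference was between Col9a2 and Col11a1 (0.908). All these values share the same 6 libraries and their scaling, so they are a description.

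Markers of chondrocytes and of bone cells moved over the same libraries. The summed level of the 15 chondrocyte markers was 4272, 1332 and 1330 FPKM in the KO libraries and 1094, 2431 and 1741 FPKM in the wildtype libraries. KO replicate 1 was thus the highest in these markers, as it was in the type IX genes and Col27a1. The cytokine-like gene Cytl1 alone gave 2759 FPKM of that sum in KO replicate 1. The summed level of 10 osteoblast and osteocyte markers was 1185, 1177 and 1186 FPKM in the KO libraries and 2437, 2236 and 845 FPKM in the wildtype libraries. Wildtype replicates 1 and 2 were the highest in this sum, as they were in Col2a1, Col11a1 and Col11a2. Wildtype replicate 3 was the lowest in the sum, as it was in Col11a1 and Col11a2. The sum was carried by Bglap, Bglap2, Col1a1 and Col1a2, and members of the list went different ways. Sost and Mepe were highest in KO replicate 1 (73.0 and 70.5 FPKM). Wildtype replicate 3 was the lowest library for Bglap, Bglap2 and Ifitm5, but not for Sost, Mepe, Dmp1, Phex, Ibsp, Col1a1 or Col1a2. Col1a1 and Col1a2 were lowest in KO replicate 1 (105 and 86.1 FPKM). Col1a1 was also higher in KO replicates 2 and 3 (317 and 312 FPKM) than in wildtype replicate 2 (246 FPKM). None of the 10 bone markers was at 0 in any library. The part of these marker levels in the collagen profiles was not tested.

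**Figure D3:**
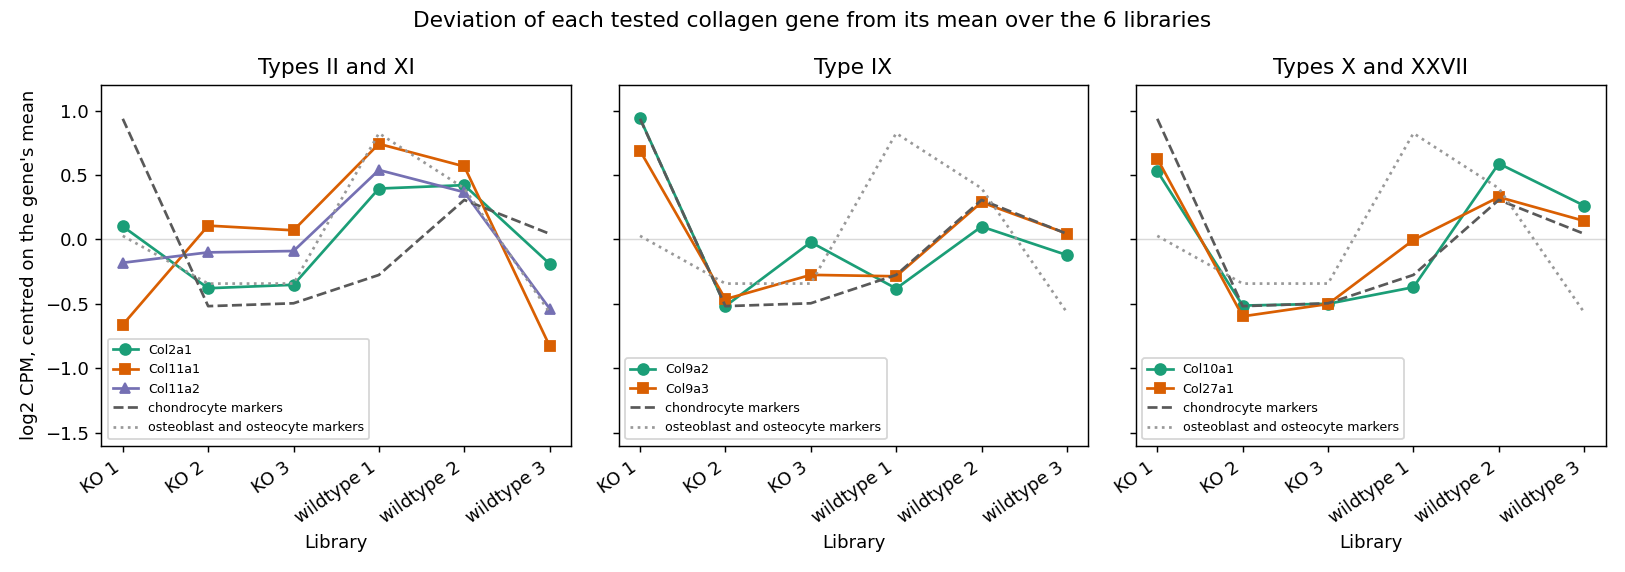
Centred log2 CPM of the 7 tested collagen genes in each of the 6 libraries, by collagen type, with the mean of the tested chondrocyte markers (dashed) and of the bone markers (dotted). Type IX, Col10a1 and Col27a1 peak in KO replicate 1 or wildtype replicate 2, and Col11a1 and Col11a2 peak in wildtype replicate 1 and are lowest in wildtype replicate 3.

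Ratios of the chains within a library were compared next, because a ratio is free of the scaling between libraries. Some set chains of the same molecule, which assemble together, side by side. The ratios of Col10a1 and of Col9a1 to Col2a1 set different collagen types side by side. The ratio of Col11a2 to Col11a1 in FPKM was 4.83, 2.99 and 3.09 in the KO libraries and 3.00, 3.01 and 4.23 in the wildtype libraries. The ratio was close to 3 in 4 libraries and higher in the 2 libraries where Col11a1 was lowest. The ratio of Col10a1 to Col2a1 was 3.84, 2.60 and 2.57 in the KO libraries and 1.68, 3.20 and 3.90 in the wildtype libraries, above 1 in each library. The ratio of Col9a2 to Col9a1 ran from 11.2 to 64.6, with the highest value in KO replicate 3, where Col9a1 rested on 18 counts. Over 6 such ratios, the log2 differences between KO and wildtype ranged from -0.11 for Col11a1 to Col2a1 to 0.44 for Col9a2 to Col9a1. The two-sided exact permutation test gave p from 0.4 to 1 (Benjamini-Hochberg adjusted p = 1 for each), where 2 against 3 samples cannot go below p = 0.2.

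The enzymes and chaperones that make collagen were examined from lists given in full by name. Of 14 tested genes of prolyl and lysyl modification, 0 were called by edgeR in the 5 samples. With the 6 libraries as labelled 1, Plod3, was called higher, where 3.71% of all tested genes were called. DESeq2 on the 5 samples called 1 gene of this list, beside 880 of all 15373 tested genes. Plod3, a lysyl hydroxylase that also attaches sugars to collagen, was at 18.6, 26.6 and 26.4 FPKM in the KO libraries and at 14.2, 13.9 and 15.2 FPKM in the wildtype libraries. Its groups did not overlap, as for 28.6% of all tested genes, and its log2 difference was 0.66 (SE 0.147, edgeR adjusted p = 0.168 with 5 samples and 0.0363 with 6 libraries). P4hb, the shared subunit of prolyl hydroxylase, had a log2 difference of 0.44 (edgeR adjusted p = 0.380), and Colgalt1, a collagen galactosyltransferase, one of -0.14 (edgeR adjusted p = 0.700). The median over the list was -0.07. It was -0.32 without KO replicate 1 and 0.04 without wildtype replicate 1.

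Of 15 tested genes of folding and secretion, 0 were called by edgeR in the 5 samples and 1 with the 6 libraries as labelled (background 3.71%). By DESeq2 on the 5 samples 1 was called, beside 880 of all 15373 tested genes. Tmem38b, an endoplasmic reticulum cation channel needed for collagen modification, was at 11.9, 15.1 and 15.6 FPKM in the KO libraries and at 8.87, 9.13 and 8.85 FPKM in the wildtype libraries. The 3 KO libraries stood above the 3 wildtype libraries, and 28.6% of all tested genes had no overlap between the 5 samples in either direction. Its log2 difference was 0.62 (edgeR adjusted p = 0.168 with 5 samples and 0.0358 with 6 libraries). Serpinh1, which encodes the collagen chaperone HSP47, was at 53.5, 56.1 and 54.1 FPKM in the KO libraries and at 100.03, 81.6 and 48.1 FPKM in the wildtype libraries. Its log2 difference was -0.48 (edgeR adjusted p = 0.543), and its highest and lowest libraries were those of Col11a2. Mia2, a factor of collagen export, had a log2 difference of 0.24 (edgeR adjusted p = 0.521). Plod3 and Tmem38b were highest in KO replicates 2 and 3, then KO replicate 1, then the wildtype libraries. The neutrophil markers Mpo, Prtn3, Elane, Ltf and Ctsg had the same order. Other neutrophil markers did not: Ngp, S100a8, S100a9 and Camp were highest in KO replicate 1. Camp in wildtype replicate 2 (4365 FPKM) also stood above KO replicates 2 and 3 (3807 and 3863 FPKM). Mpo, the peroxidase of neutrophil granules, was at 343, 620 and 611 FPKM in the KO libraries and at 240, 258 and 251 FPKM in the wildtype libraries. The part of neutrophils in the levels of Plod3 and Tmem38b was not tested.

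Of 10 tested genes of propeptide removal and cross-linking, 0 were called by edgeR in the 5 samples. Loxl1, a lysyl oxidase-like enzyme, was called lower with the 6 libraries as labelled (background 3.71% in either direction). By DESeq2 on the 5 samples 1 of the 10 was called, beside 880 of all 15373 tested genes. Loxl1 was at 3.29, 2.76 and 2.98 FPKM in the KO libraries and at 6.64, 4.69 and 5.17 FPKM in the wildtype libraries. The groups did not overlap, as for 28.6% of all tested genes, and the log2 difference was -0.81 (edgeR adjusted p = 0.182 with 5 samples and 0.0417 with 6 libraries). The procollagen peptidases Adamts14 and Bmp1 had log2 differences of -0.94 and -0.59 (edgeR adjusted p = 0.331 and 0.453). The median over the list was -0.45, and -0.21 without wildtype replicate 1.

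Among 7 collagen receptors, 0 were called by edgeR in the 5 samples or in the 6 libraries as labelled. Ddr2, a receptor kinase for fibrillar and type X collagens, was at 3.29, 3.00 and 3.19 FPKM in the KO libraries and at 6.62, 3.58 and 4.23 FPKM in the wildtype libraries (log2 difference -0.56, edgeR adjusted p = 0.380). Ddr1, its homolog, and Itgb1, the shared beta chain of the collagen-binding integrins, had log2 differences of -0.48 and -0.19 (edgeR adjusted p = 0.411 and 0.620).

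Of 8 tested regulators of these genes, 0 were called by edgeR in the 5 samples. With the 6 libraries as labelled 1, Sox6, was called lower (background 3.71% in either direction). By DESeq2 on the 5 samples 1 of the 8 was called, beside 880 of all 15373 tested genes. Sox6 was at 3.40, 3.23 and 3.19 FPKM in the KO libraries and at 5.39, 4.08 and 5.90 FPKM in the wildtype libraries. The groups did not overlap, as for 28.6% of all tested genes (log2 difference -0.61, SE 0.168, edgeR adjusted p = 0.202 with 5 samples and 0.0488 with 6 libraries). SOX6 is also made by erythroid precursors, and the summed erythroid markers were at 60463, 24997 and 24733 FPKM in the KO libraries and at 71376, 82659 and 108119 FPKM in the wildtype libraries. Their part in the level of Sox6 was not tested. Sox9 was at 2.81, 0.865 and 1.11 FPKM in the KO libraries and at 1.70, 2.26 and 1.99 FPKM in the wildtype libraries, with KO replicate 1 above the wildtype libraries and the other KO replicates below (log2 difference -0.03, edgeR adjusted p = 0.992). Sox5 was below the limit for testing, at 0.235 to 0.654 FPKM. Mef2c had a log2 difference of -0.75 and Trps1, a GATA-type transcription factor of chondrocytes, one of 0.16 (edgeR adjusted p = 0.380 and 0.817). Runx2, the other driver of Col10a1 named above, had one of -0.0006 (edgeR adjusted p = 0.999).

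The lists that mark the stages of cartilage gave 0 called genes as well. Of 11 tested chondrocyte markers 0 were called in the 5 samples or the 6 libraries, and their median log2 difference was 0.38, with 9 of the 11 positive. This rested on KO replicate 1: without it, 0 of the 11 were positive and the median was -0.61. Acan had a log2 difference of 0.04 and Comp one of 0.20 (edgeR adjusted p = 0.980 and 0.896). The 3 with the smallest p were Chad (0.67), Prg4 (0.62) and Snorc (0.69), with edgeR adjusted p from 0.534 to 0.665 and KO replicate 1 as the highest library for each. Of 7 tested hypertrophy genes 0 were called, with a median of -0.41, which was -0.05 without wildtype replicate 1. Mmp13, a collagenase of type II collagen and a marker of late hypertrophy, was at 88.9, 78.8 and 80.9 FPKM in the KO libraries and at 147, 99.5 and 98.0 FPKM in the wildtype libraries (log2 difference -0.41, edgeR adjusted p = 0.451). Spp1 and Pth1r had log2 differences of -0.57 and -0.41. Among 6 tested collagenases and related proteases, Mmp8, the collagenase of neutrophils, was called higher with the 6 libraries as labelled (background 3.71% in either direction). By DESeq2 on the 5 samples 1 of the 6 was called, beside 880 of all 15373 tested genes. The log2 difference of Mmp8 was 0.96 (edgeR adjusted p = 0.168 with 5 samples and 0.0369 with 6 libraries). The summed neutrophil markers were at 60486, 49033 and 50207 FPKM in the KO libraries and at 25796, 42270 and 29379 FPKM in the wildtype libraries, and their part in the level of Mmp8 was not tested. Ctsk had a log2 difference of -0.92 (edgeR adjusted p = 0.370).

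The collagens of other types were set beside those of cartilage. Of 36 other collagen genes, 22 were tested and 0 were called by edgeR in the 5 samples. By DESeq2 on the 5 samples 1 of the 22 was called, beside 880 of all 15373 tested genes. With the 6 libraries as labelled 1, Col14a1, was called lower (background 3.71% in either direction). Its log2 difference was -1.45 (edgeR adjusted p = 0.166 with 5 samples and 0.0358 with 6 libraries). The log2 difference was negative for 21 of the 22, beside 5 of the 7 cartilage collagens and 52.5% of all tested genes, with medians of -0.47, -0.11 and -0.02. The difference between the 2 sets of collagens was not tested. Wildtype replicate 1 had the highest mean centred log2 CPM of the other collagens, 0.75, against 0.12 and -0.13 in wildtype replicates 2 and 3, and without it their median was -0.18, with 19 of the 22 negative. The most abundant were Col1a1 and Col1a2, the chains of type I collagen of bone and tendon, and Col5a2, a chain of type V collagen. Col1a1 was at 105, 317 and 312 FPKM in the KO libraries and at 495, 246 and 118 FPKM in the wildtype libraries, so that it was above each cartilage collagen in each library. Col5a2 was at 8.86, 14.5 and 14.7 FPKM in the KO libraries and at 24.9, 17.7 and 8.71 FPKM in the wildtype libraries, and of all tested genes it had the profile nearest to that of Col11a1 (root mean square difference 0.104). Col22a1 and Col1a2 were also among the 8 genes nearest to Col11a1. For Col11a2 the nearest gene was Fkbp10 (0.056), a prolyl isomerase of procollagen, with Serpinh1 (0.107) among the nearest 8. For Col9a3 it was Colgalt2 (0.039), a collagen galactosyltransferase. For Col9a2, Prg4 (0.152) was among the nearest 8, and for Col10a1 the ribosomal protein gene Rps14 was the nearest (0.056). These genes were picked out after their values were seen.

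**Figure D4:**
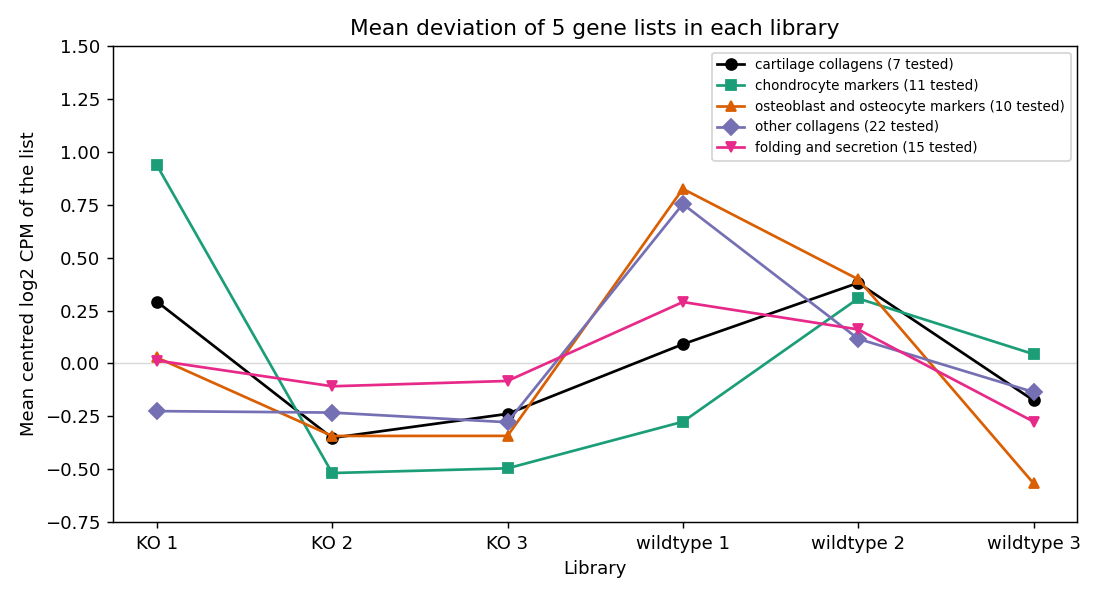
Mean centred log2 CPM of the tested genes of 5 lists in each of the 6 libraries. The cartilage collagens are highest in wildtype replicate 2 (0.38) and KO replicate 1 (0.29), the chondrocyte markers in KO replicate 1 (0.94), and the bone markers (0.82) and other collagens (0.75) in wildtype replicate 1.

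The profile averaged over the 7 tested collagen genes had centred values of 0.29, -0.35 and -0.24 in the KO libraries and of 0.09, 0.38 and -0.17 in the wildtype libraries. The 8 tested genes nearest to it were Lrfn4, Msl3l2, Zc4h2, Gm6210, Tmem30b, Rdh5, Gm8942 and Rps12-ps11, with root mean square differences from 0.045 to 0.075 over the 6 libraries. None of these was on any of the lists. Several are pseudogenes or predicted genes that can share reads with near-identical copies, so their values are uncertain.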

How the data were processed

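Articular cartilage (3 KO and 3 wildtype libraries) was profiled by strand-specific, oligo(dT)-selected RNA-seq with paired reads of 150 bases. The gene knocked out is not reported here. The authors deposited 1 table with FPKM values, computed by them within each library, and estimated counts. The deposited counts were whole numbers, yet the value 4 was more frequent (6596 times) than 3 (4170) or 5 (2332), so a count was not taken to be a read pair and no counting interval is given. The submitters' processing notes name cutadapt 1.9, HISAT2 2.0.4, UMI-tools, StringTie 1.3.4d, DESeq2 and edgeR. Their order and options, and the use of molecular identifiers and strand in counting, were not given in the sources used here. Gene positions are those of GRCm38.

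Groups came from the sample titles. KO replicates 2 and 3 were averaged (counts rounded) on the noise ratio over genes with mean counts from 2000 to 50000. Log2 differences, standard errors, 95% intervals and adjusted p-values are from edgeR 4.0.16 (R 4.3.3, quasi-likelihood test, TMM, mean FPKM of 0.5 or more). Centred values are log2 CPM with a prior count of 2. Alternatives used limma 3.58.1 on log2(FPKM + 1) or log2(FPKM + 0.1), DESeq2 1.42.0, median-of-ratios scaling, other limits on FPKM, a replicate block and leaving out libraries. The fit without both KO replicates 2 and 3 was added after seeing the data. Of the tests, only that of edgeR was tried on simulated counts, with means and dispersions taken from these data. The members, the gene lists and the tests were chosen with earlier results of these data known. Genes named were the 8 collagen genes, the 3 of each list with the smallest p, Sox9, Sox5, Sox6, Acan, Comp, Matn3 and Mmp13, the 3 other collagens with the highest mean FPKM, the 8 genes nearest to the mean profile, and others where stated. Of the lists not described in the report, B cell (8 tested, median log2 difference -1.47), adipocyte (5 tested, -2.38), skeletal muscle (6 tested, -0.55) and tendon and fibroblast markers (6 tested, -0.46) had 0 genes called by edgeR in the 5 samples. DESeq2 on the 5 samples called 8 B cell and 3 adipocyte markers lower, and 0 of the muscle or of the tendon and fibroblast markers. It also called 6 neutrophil markers higher and 2 erythroid markers lower, beside 880 of all 15373 tested genes. With the 6 libraries as labelled, 7 B cell markers and 1 adipocyte marker were called lower, and 3 neutrophil markers higher. In that fit 3.71% of all tested genes were called, in either direction.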

Additional observations from a re-analysis of the deposited data

How the results depend on the processing

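None of the 7 tested cartilage collagens was called under any setting that gave it a value (Col9a2 and Col9a3 were under the limit of 5 FPKM), and 92 of 103 log2 differences under another setting kept the direction and call of the reported value. The number of genes called over all genes moved from 0 to 570 with the 6 libraries as labelled, 21 without the limit on FPKM, 880 by DESeq2 and 9 without both KO replicates 2 and 3, and from 0 to 352 when a library was left out, with 352 without KO replicate 1 and 1 without wildtype replicate 2 or 3. The counts of 352 and 9 rest on 1 independent KO sample, assumed to vary like the wildtype samples. The log2 difference of Col27a1, close to 0, changed sign with median-of-ratios scaling (0.0018), without the limit on FPKM (0.017) and by DESeq2 (0.0021). Without both KO replicates 2 and 3 it was 0.47, and that of Col10a1 was 0.32. When a library was left out, the ranges were -0.71 to 0.084 for Col27a1, -0.72 to 0.12 for Col10a1, -0.13 to 0.71 for Col9a2 and -0.40 to 0.37 for Col9a3. Those of Col2a1 (-0.60 to -0.25), Col11a1 (-0.88 to -0.22) and Col11a2 (-0.58 to -0.12) stayed negative. The cause was not tested. Same-numbered libraries did not deviate together (correlations -0.14, -0.11 and -0.06). As KO replicates 2 and 3 were nearly the same library, these correlations cannot decide whether the numbers pair the libraries. With the replicate block 0 genes were called, and Col9a3 had a log2 difference of -0.040. Without KO replicate 1, the log2 differences of the ratios of Col9a1 to Col2a1, Col9a2 to Col9a1 and Col9a3 to Col9a1 were -0.80, 1.26 and 0.99.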
